A study of Mus musculus with 67 samples.

Results

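The Werner helicase gene Wrn and 5 genes for proteins that work at telomeres or in DNA repair were followed in the cerebral cortex of C57BL/6 mice over 5 ages and under 2 diets. The genes were chosen by name: Wrn, Terf1, Tnks, Tnks2, Ptges3 and Ercc3. Each was represented by 1 probe, so the group is 6 of the 4209 genes that the platform annotation names by a single symbol. The study itself had singled out Wrn and its telomere partners with these samples in view, so their direction here is not independent evidence.

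Wrn encodes a DNA helicase and exonuclease that unwinds unusual DNA structures during replication, repair and telomere copying, and its loss in humans causes Werner syndrome, a disorder of premature aging. Telomeres are the repeat sequences at chromosome ends, and they are covered by the shelterin complex. Terf1 encodes TRF1, the shelterin subunit that binds the double-stranded repeats and restrains their lengthening. Tnks and Tnks2 encode the tankyrases, enzymes that attach ADP-ribose chains to target proteins, which in human cells include TRF1. Ptges3 encodes p23, a co-chaperone of Hsp90 that helps to assemble telomerase. Ercc3 encodes XPB, a helicase of the transcription and repair factor TFIIH, which opens DNA both at promoters and at damaged bases.

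Each of the 67 arrays carried cDNA from 1 mouse, labelled with a radioactive nucleotide and hybridised to a filter of spotted cDNA clones. Mice fed ad libitum (AL) on regular feed were killed at 17-21 days (n = 5), 33-44 days (n = 5), 6 months (n = 10), 16 months (n = 10) and 24 months (n = 10). Mice on caloric restriction (CR) received regular feed to 13 weeks of age, then fortified feed at 90% for 1 week, 75% for 1 week and 60% from then on, and were killed at 6 months (n = 9), 16 months (n = 10) and 24 months (n = 8). Males and females were present at every age and under both diets, and the 3 males of the CR group at 24 months were all 673 days old, against 714 to 743 days for AL males. The tissue was whole cortex, so fewer cells of a type and less RNA per cell cannot be told apart. The labelled tissue could be checked with few markers: 2 of 16 listed neuronal markers, 3 of 11 of astrocytes, 2 of 12 of oligodendrocytes, 3 of 12 of microglia and 0 of 8 of endothelium had a probe of their own, and defining markers such as Snap25, Gfap and Mbp were not among them.

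Levels are z-scores: each array's log intensities were centred on 0 and divided by their SD over its spots, so a value of 1 lies 1 array SD above the average spot, and a difference in z cannot be read as a fold change. A probe's z also depends on how its own clone hybridises, so probes were compared between mice and not with one another. A further split was seen in the values and not in the labels: the 22 arrays numbered 46 and above differed from the other 45, and these are called the later and the earlier array set. The later set held 0 of 5 arrays at 17-21 days, 2 of 5 at 33-44 days, and 3 of 10, 4 of 10 and 4 of 10 AL arrays at 6, 16 and 24 months; of the CR arrays it held 2 of 9, 4 of 10 and 3 of 8. Runs of consecutive array numbers, here called passes, formed 5 blocks in each of which 2 AL arrays of 16 months and 2 of 24 months were present. A male and a female array of the AL 16 months group were nearly identical (r = 0.99975, against 0.989 for the next closest pair of arrays) and may be 1 sample deposited under both labels, which the labels do not settle. They entered the group levels as 1 value, so that n = 9 there, and the fits as separate arrays. Results without both are given below for some genes in the comparison of 24 with 16 months under AL.

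Wrn and Terf1 are the genes that the account turns on. Over AL mice, Wrn averaged 0.31 ± 0.146 (SD) at 17-21 days, 0.404 ± 0.212 at 33-44 days, 0.427 ± 0.119 at 6 months, 0.446 ± 0.0625 at 16 months and 0.272 ± 0.214 at 24 months. In CR mice it averaged 0.36 ± 0.157, 0.319 ± 0.221 and 0.395 ± 0.195 at 6, 16 and 24 months. The order of the 8 means ran from AL at 16 months down to AL at 24 months, and no step between neighbours in that order exceeded 0.041, which is below the SD of every group. The spread itself differed: AL mice of 16 months lay within 0.33 to 0.54, whereas AL mice of 24 months reached from -0.21 to 0.47.

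For Terf1 the AL means were 1.94 ± 0.118 at 17-21 days, 1.92 ± 0.146 at 33-44 days, 1.92 ± 0.151 at 6 months, 1.93 ± 0.15 at 16 months and 1.76 ± 0.162 at 24 months. In CR mice it stood at 1.90 ± 0.0891, 1.92 ± 0.163 and 1.86 ± 0.146 at 6, 16 and 24 months. The 6 highest means lay between 1.90 and 1.94, CR at 24 months came next, and the last step, of 0.102 down to AL at 24 months, was the widest in the order and still less than the SD of either neighbour.

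**Figure D1:**
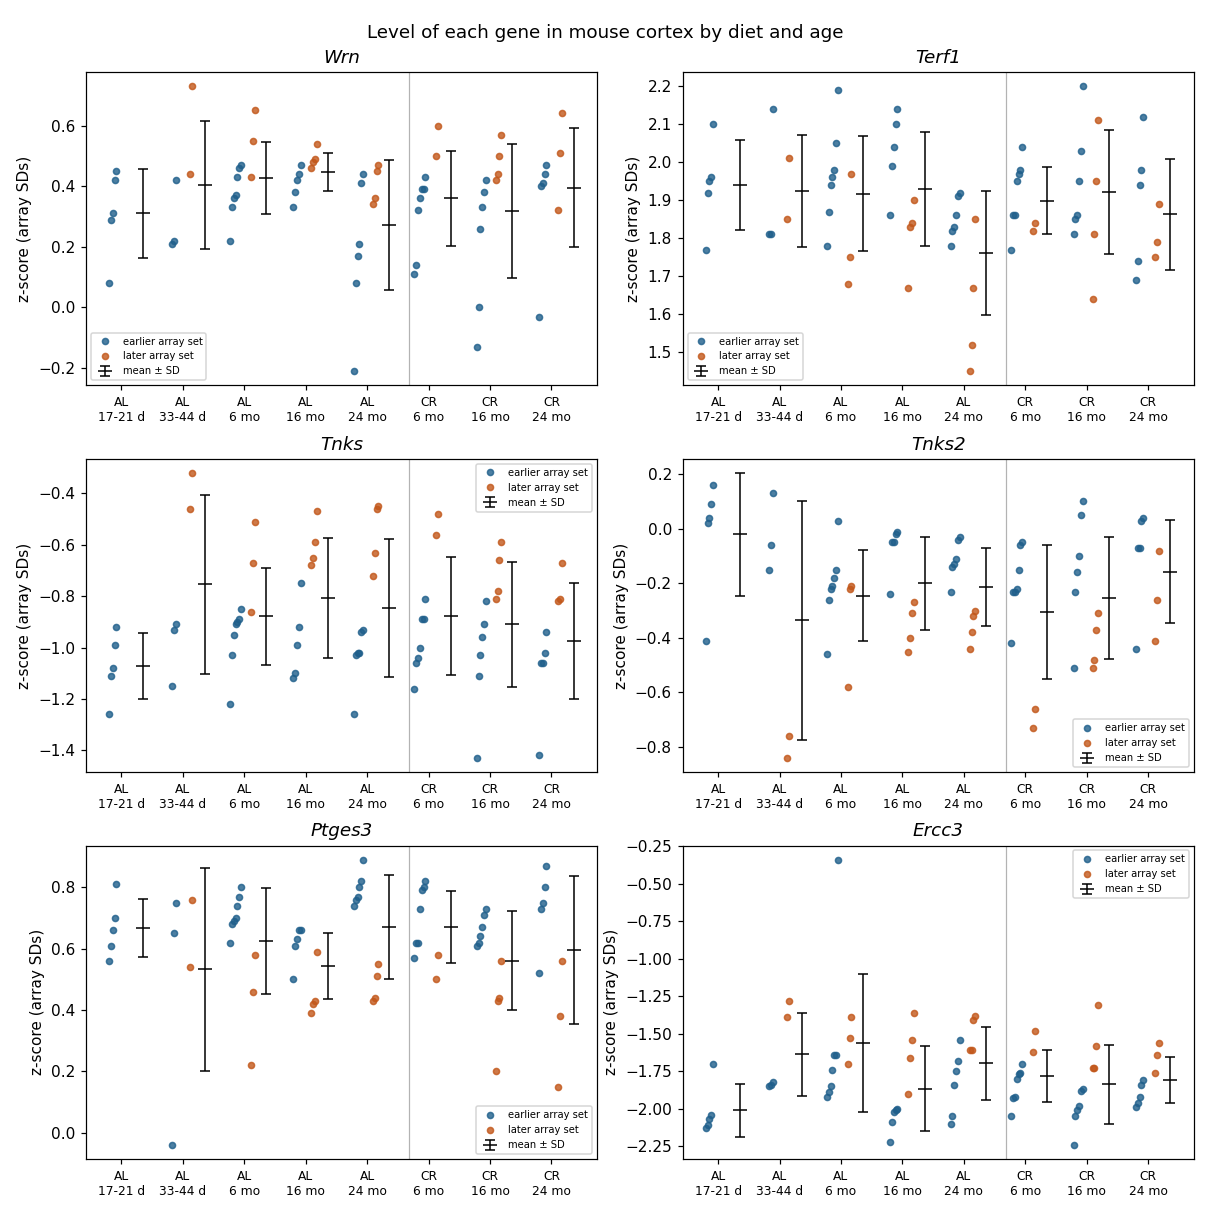
z-score of each gene (y axis, in array SDs) in every mouse, by diet and age (x axis); blue points are arrays of the earlier set, orange points those of the later set, and black bars give the mean ± SD of the group, with the near-identical pair of AL 16 months arrays drawn as 1 point. The means of Wrn and Terf1 are lowest in AL mice of 24 months, and orange points lie mostly above the blue ones for Tnks and mostly below them for Tnks2 and Ptges3.

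The tankyrase genes varied between ages without a common direction. Tnks had AL means of -1.07 ± 0.129, -0.754 ± 0.349, -0.879 ± 0.191, -0.808 ± 0.233 and -0.846 ± 0.269 from 17-21 days to 24 months and CR means of -0.877 ± 0.229, -0.91 ± 0.242 and -0.975 ± 0.227. Tnks2 had AL means of -0.02 ± 0.225, -0.336 ± 0.436, -0.246 ± 0.167, -0.2 ± 0.171 and -0.212 ± 0.143, and CR means of -0.306 ± 0.247, -0.252 ± 0.223 and -0.158 ± 0.189. In both orders the widest step involved the youngest mice, in which Tnks was lowest and Tnks2 highest, and no step exceeded the SDs of its neighbours.

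The chaperone gene Ptges3 had AL means of 0.668 ± 0.0952, 0.532 ± 0.332, 0.626 ± 0.174, 0.543 ± 0.109 and 0.671 ± 0.17 and CR means of 0.67 ± 0.117, 0.561 ± 0.162 and 0.595 ± 0.242. For the TFIIH helicase gene Ercc3 the AL means were -2.01 ± 0.177, -1.64 ± 0.278, -1.56 ± 0.46, -1.87 ± 0.284 and -1.70 ± 0.243, and its CR means -1.78 ± 0.172, -1.84 ± 0.264 and -1.81 ± 0.152. Steps between neighbours in either order stayed within the SDs.

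For all 6 genes the 2 array sets differed by more than any step between neighbouring groups in the order of levels. Tnks averaged -1.02 ± 0.144 in the 45 earlier arrays and -0.62 ± 0.146 in the 22 later ones. Tnks2 averaged -0.12 ± 0.159 and -0.422 ± 0.193, Ptges3 0.681 ± 0.145 and 0.46 ± 0.14, and Ercc3 -1.88 ± 0.287 and -1.55 ± 0.163 in the same order. Wrn was also brighter in the later set (0.495 ± 0.101 against 0.305 ± 0.167) and Terf1 dimmer (1.80 ± 0.154 against 1.94 ± 0.125). Since the split was found in the values, these levels are a description and carry no test, and results are given below within each set where the set touches them.

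From 16 to 24 months under AL feeding, the comparison of middle with old age, Wrn and Terf1 were both lower on average and the other genes were not displaced together. Wrn at 16 months had a lowest value of 0.33, a median of 0.46 and a highest of 0.54, and at 24 months -0.21, 0.35 and 0.47. The groups overlapped: 8 of 10 old mice lay below the mean of the 16 months group and 4 below its lowest value. Terf1 at 16 months had 1.67, 1.90 and 2.14, and at 24 months 1.45, 1.825 and 1.92. All 10 old mice lay below the 16 months mean of Terf1, and 2 below its lowest value.

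The difference of the group means (24 minus 16 months, the sexes weighted equally) was -0.173 for Wrn, with a 95% interval of -0.335 to -0.0111 and an unadjusted p of 0.0367 from limma. For Terf1 it was -0.18 (-0.314 to -0.0464), with an unadjusted p of 0.0092. Neither passed Benjamini-Hochberg adjustment over the 8448 probes, the adjusted p being 0.719 for Wrn and 0.646 for Terf1, and 0 of 6 members passed in this comparison, as did 0% of all probes. At an unadjusted p under 0.05, 2 of 6 members stood out beside 6.57% of all probes (555), and 2 of 6 in the negative direction beside 4.52%. Terf1 ranked 119th and Wrn 430th of all probes by p. Without the near-identical arrays the differences were -0.174 for Wrn and -0.155 for Terf1, each with an adjusted p of 1.

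Ptges3 and Ercc3 leaned the other way without passing. Ptges3 differed by 0.132 (-0.0357 to 0.3, unadjusted p = 0.12, adjusted p = 0.902 by limma) and Ercc3 by 0.205 (-0.0448 to 0.455, unadjusted p = 0.106, adjusted p = 0.901). Without AL 16 months male replicate 2, an array of the near-identical pair, the Ercc3 difference was 0.161. In the earlier set the Ptges3 values of the 2 ages did not overlap, with 0.5 to 0.66 in 6 arrays of 16 months and 0.74 to 0.89 in 6 of 24 months. The 2 lowest of the 16 months arrays, both at 0.5, were the near-identical pair, and the other 4 lay between 0.61 and 0.66. In the later set they did, with 0.39 to 0.59 against 0.43 to 0.55 in 4 arrays each, and the difference was 0.203 in the earlier and 0.025 in the later set (adjusted p = 0.397 and 0.956 by limma within each). This split of Ptges3 was picked out after its values were seen, and how many of all probes split in this way was not counted. The tankyrases differed by -0.027 (Tnks) and -0.031 (Tnks2), and intervals that reached 0.246 below 0 for Tnks and 0.23 below 0 for Tnks2 leave room for a difference as large as that of Wrn.

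The direction of the Wrn and Terf1 differences was checked in the parts of the series. Wrn was lower at 24 months in 5 of 5 passes, by means that ran from -0.285 to -0.05, and Terf1 in 4 of 5, from -0.385 to 0.01. These are the arrays of the overall difference, and in pass 2 both 16 months arrays were the near-identical pair. How many of all probes went the same way in every pass was not counted. Within the earlier set Wrn differed by -0.23 and within the later set by -0.0875, whereas Terf1 differed by -0.175 and -0.188. In males Wrn differed by -0.1 and in females by -0.246; for Terf1 these were -0.15 and -0.21. The sex-by-age term itself was -0.146 for Wrn (interval -0.47 to 0.178) and -0.06 for Terf1 (-0.327 to 0.207); 0 of 6 members had an unadjusted p under 0.05 there, beside 0.0947% of all probes.

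**Figure D2:**
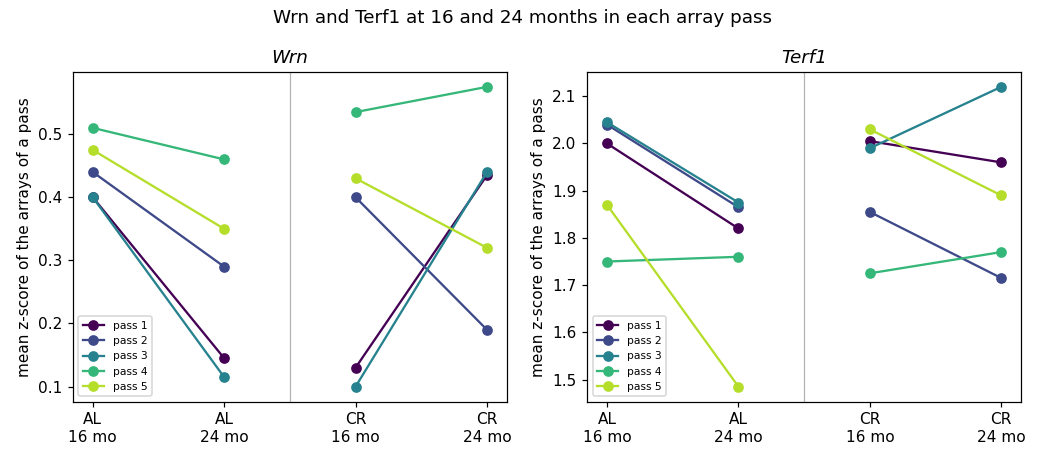
Mean z-score (y axis) of the arrays of each pass at 16 and 24 months under AL and CR feeding (x axis), 1 colour and line per pass, 1 or 2 arrays per point. The AL 16 months point of pass 2 is the near-identical pair. For Wrn all 5 AL lines slope down (-0.285 to -0.05) while the CR lines go both ways, and for Terf1 4 of 5 AL lines slope down.

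With pass and array set entered as blocks the differences were unchanged in size and the adjusted p came to 0.156 for Wrn and 0.082 for Terf1. In that fit 1.09% of all probes passed adjustment (92 of 8448) and 0 of 6 members did, and 15.9% had an unadjusted p under 0.05, as had 3 of 6 members (Wrn, Terf1 and Ercc3). Both near-identical arrays were in that fit. The selection described by the study begins instead with a z-ratio above 1.5 or under -1.5 (the difference divided by the SD of all differences), an unadjusted p under 0.05 and a mean z above 0; a two-way analysis of variance that follows there was not applied here. Wrn (z-ratio -1.65) and Terf1 (-1.72) met these steps, so 2 of 6 members were selected, both negative, beside 2.04% of all probes and 1.05% in the negative direction. Without the near-identical arrays Terf1 no longer met them, since its unadjusted p then missed the threshold, and Wrn still did. Tnks, Tnks2 and Ercc3 could not have met them, because their mean z over these mice lay below 0.

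The values were also set against those of the spots around each probe. For Wrn and Terf1 the correlation with the mean of these spots over the 67 arrays was -0.014 and 0.057 as deposited, and 0.536 and 0.544 once pass and array set means were removed, a description only. The mean of the surrounding spots (up to 24, within 2 rows and columns of the inferred layout) was itself lower at 24 than at 16 months by -0.0978 around Wrn and by -0.0777 around Terf1. After this mean was subtracted the differences were -0.0752 for Wrn and -0.102 for Terf1, with adjusted p of 0.999 for both, and neither met the selection rule. With the blocks added, the adjusted p were 0.55 and 0.319. Around Ptges3 the surrounding mean was higher at 24 months by 0.0782, and the Ptges3 difference went from 0.132 to 0.0538 on subtraction. In the earlier set its corrected values overlapped, with 0.361 to 0.687 at 16 months and 0.524 to 0.67 at 24 months. How far the surroundings account for these differences was not tested.

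The subtraction did not act alike on the 6 probes. The SD over the 67 arrays went from 0.222 to 0.0984 for Tnks2, from 0.236 to 0.173 for Tnks, from 0.177 to 0.125 for Ptges3 and from 0.295 to 0.266 for Ercc3. For Wrn it grew from 0.173 to 0.212 and for Terf1 from 0.149 to 0.197. Once pass and array set means were removed from both, it went from 0.146 to 0.123 for Wrn and from 0.124 to 0.107 for Terf1. Most of what varied in Tnks2 between mice was thus shared by its neighbours on the filter, while in Wrn and Terf1 the surroundings and the probe shifted in opposite directions between the array sets.

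**Figure D3:**
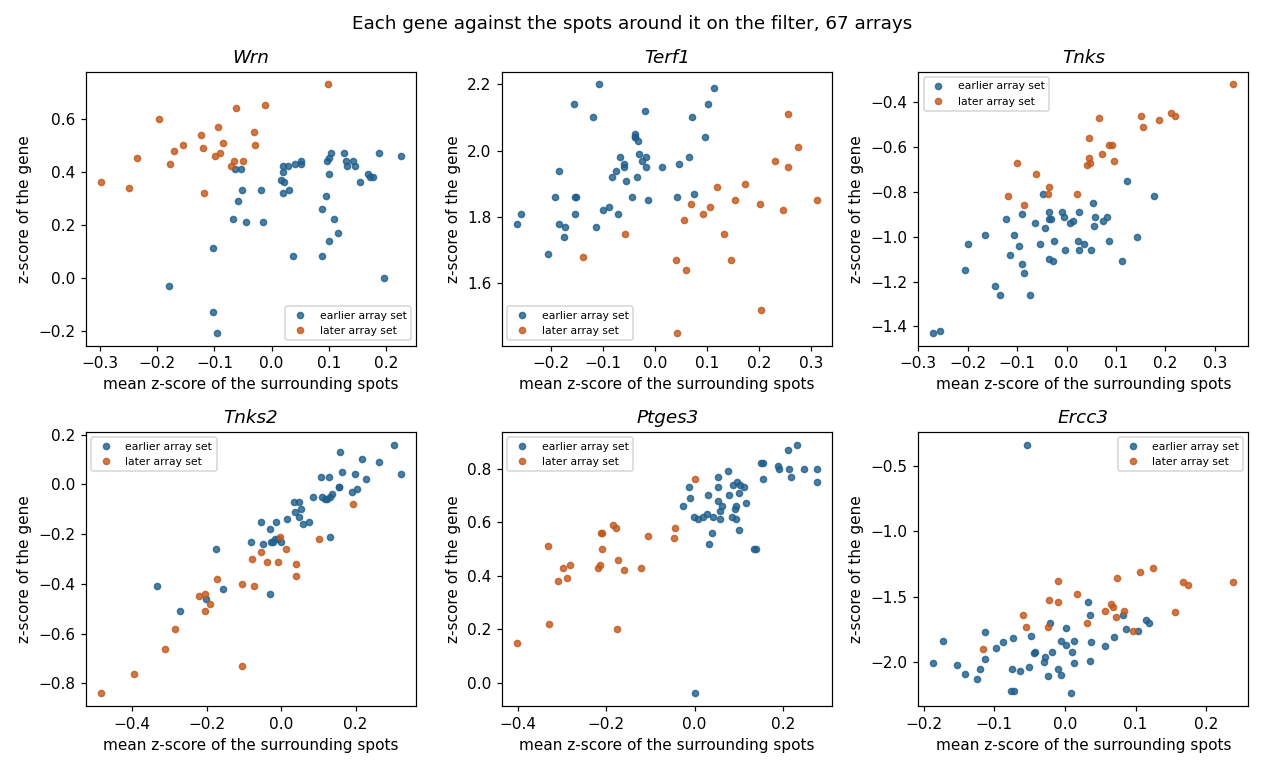
z-score of each gene (y axis) against the mean z-score of the spots around it (x axis) on the 67 arrays, blue for the earlier and orange for the later array set. Tnks2, Tnks and Ptges3 climb with their surroundings, and for Wrn and Terf1 the 2 sets form separate clouds.

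Other settings left both differences negative. Array weights moved Wrn to -0.265 and Terf1 to -0.151, with adjusted p of 0.104 and 0.204. Leaving out each array in turn gave -0.207 to -0.122 for Wrn and -0.217 to -0.141 for Terf1. The lowest Wrn value, -0.21 in a 24 months female (replicate 3), moved the difference most: without it the difference was -0.122. Wrn no longer met the selection steps without any 1 of 7 of the 20 arrays, this one among them, and Terf1 without either of 2.

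**Figure D4:**
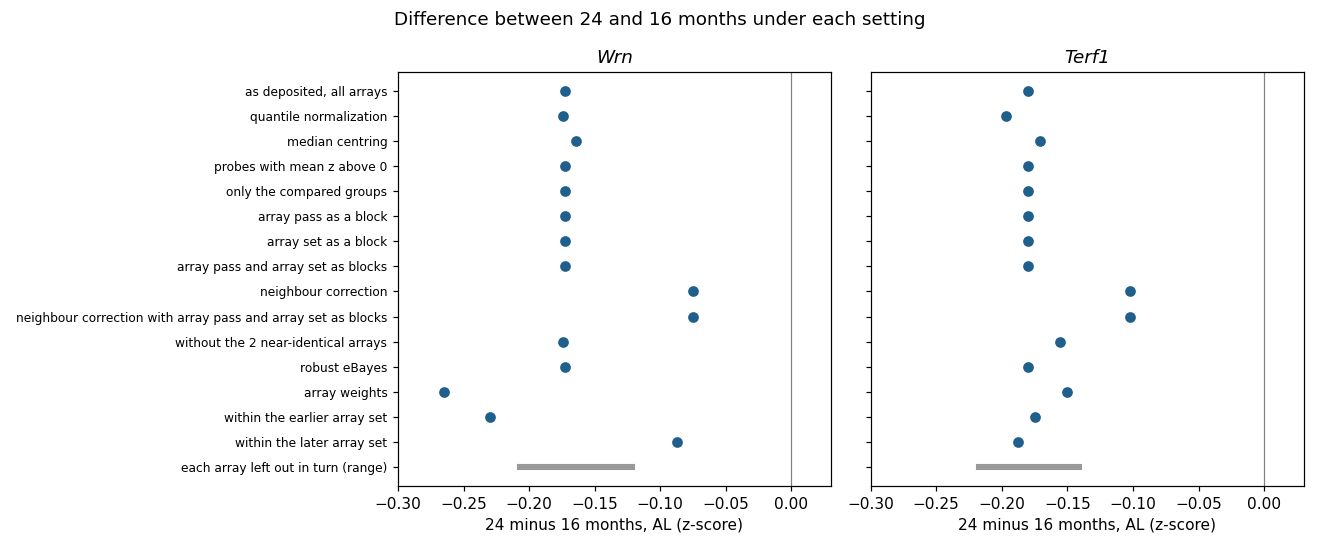
Difference between 24 and 16 months under AL feeding (x axis, z-score) for Wrn and Terf1 under each setting (y axis); points are single values and grey bars span the values with each array left out in turn. All points lie below 0, and those closest to 0 are the neighbour-corrected ones (-0.0752 for Wrn, -0.102 for Terf1) together with Wrn in the later array set (-0.0875).

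Under CR the same interval of age was examined in 18 mice. Wrn at 16 months had a lowest value of -0.13, a median of 0.40 and a highest of 0.57, and at 24 months -0.03, 0.425 and 0.64. Low values were present at both ages, and 7 of 8 mice of 24 months lay above the 16 months mean. That mean, 0.319, itself lay below the 16 months median. Wrn differed by 0.069 (-0.106 to 0.244, adjusted p = 0.999 by limma) and Terf1 by -0.0663 (-0.211 to 0.078, adjusted p = 0.999). The other differences were -0.056 for Tnks, 0.0713 for Tnks2, 0.045 for Ptges3 and 0.014 for Ercc3. In this comparison 0 of 6 members had an unadjusted p under 0.05, beside 4.15% of all probes.

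CR and AL mice were compared directly at 24 months, to ask whether the diet was associated with the level in old age. Wrn was 0.116 higher under CR (-0.0589 to 0.291, unadjusted p = 0.189) and Terf1 0.0937 higher (-0.0506 to 0.238, unadjusted p = 0.199), and the adjusted p was 1 for both by limma. Of 8 CR mice, 7 lay above the AL mean of Wrn and 5 above that of Terf1. Both AL means lay below the AL medians, 0.272 against 0.35 for Wrn and 1.76 against 1.825 for Terf1. Tnks differed by -0.12, Tnks2 by 0.0313, Ptges3 by -0.065 and Ercc3 by -0.127, each with an interval that held 0. At an unadjusted p under 0.05, 0 of 6 members stood out, beside 1.04% of all probes.

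The difference between the diets in the change from 16 to 24 months was tested as an interaction. For Wrn it was 0.242 (0.00372 to 0.48), with an unadjusted p of 0.0466 and an adjusted p of 1 (limma), and Wrn ranked 71st of all probes by p. It was the 1 member of 6 under 0.05, beside 0.888% of all probes. The near-identical arrays of AL 16 months, both at 0.44 for Wrn, entered this fit as separate mice. The interval, whose lower end was 0.00372, is not given without them. For Terf1 the interaction was 0.114 (-0.083 to 0.31), for Tnks2 0.102, for Tnks -0.029, for Ptges3 -0.087 and for Ercc3 -0.191. The Wrn interaction rests on both diets: at 16 months CR mice stood 0.126 lower than AL mice (interval -0.288 to 0.0359), and at 24 months 0.116 higher. Without CR 24 months male replicate 3 the interaction was 0.172, and without male replicate 2 it was 0.339. With the neighbour correction the Wrn interaction was 0.192 (unadjusted p = 0.2 by limma), and with blocks added 0.204 (0.0163, adjusted p = 0.988). By plain means over mice, with the sexes not weighted equally, Wrn in the earlier set differed between 16 and 24 months by -0.23 under AL and 0.128 under CR. In the later set, which held 1 male and 2 females of CR 24 months, these differences were -0.0875 and 0.0075. The comparisons at 24 months and between ages share arrays with the interaction, so they are not separate evidence.

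**Figure D5:**
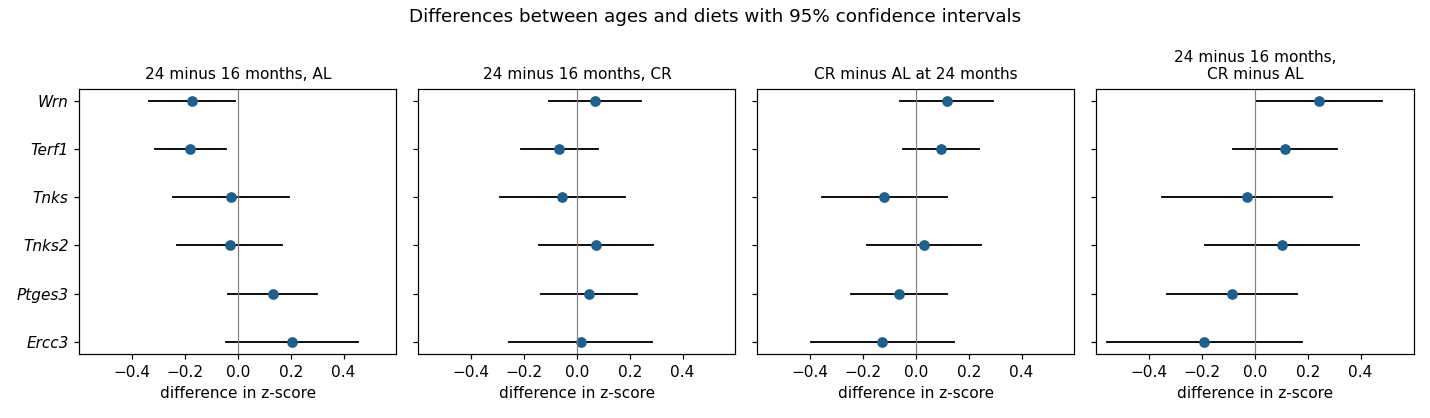
Differences in z-score (x axis) for each gene (y axis) in 4 comparisons, points giving the fitted difference and lines its 95% interval. The intervals of Wrn and Terf1 lie below 0 for 24 minus 16 months under AL, and only Wrn's lies above 0 for the difference between the diets. Both near-identical arrays of AL 16 months entered these fits.

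At the other ages of CR no member stood out. Over 6, 16 and 24 months together CR mice differed from AL mice by -0.0267 for Wrn (-0.124 to 0.0703) and by 0.0163 for Terf1 (-0.0637 to 0.0963). At an unadjusted p under 0.05, 0 of 6 members stood out over the 3 ages (0.71% of all probes), at 6 months (0.462%), at 16 months (1.03%) and between 16 and 6 months of CR (2.33%). Females and males differed in 0 of 6 members, beside 0.592% of all probes.

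Between 17-21 and 33-44 days, the interval from weaning to adolescence, 3 of 6 members had an unadjusted p under 0.05, beside 14% of all probes (1186), and 0 of 6 passed adjustment, beside 0.0947% (8 probes). Tnks was -1.26, -1.11, -1.08, -0.99 and -0.92 in the younger mice and -1.15, -0.93, -0.91, -0.46 and -0.32 in the older ones. Tnks2 was -0.41, 0.02, 0.04, 0.09 and 0.16 in the younger mice and -0.84, -0.76, -0.15, -0.06 and 0.13 in the older ones. Ercc3 was -2.13, -2.11, -2.07, -2.04 and -1.7 in the younger mice and -1.85, -1.84, -1.82, -1.39 and -1.28 in the older ones.

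In all 3 genes the 2 most extreme mice of 33-44 days were the 2 whose arrays belonged to the later set. The values of the remaining mice overlapped those of the younger group, for Ercc3 only through the younger mouse at -1.7. The fitted differences were 0.344 for Tnks (unadjusted p = 0.0333), -0.354 for Tnks2 (0.0166) and 0.398 for Ercc3 (0.031), with adjusted p of 0.33, 0.289 and 0.325 by limma. Within the earlier set alone Tnks differed by 0.108, Tnks2 by -0.0558 and Ercc3 by 0.183, and with pass and set as blocks the 3 differences were 0.168, -0.176 and 0.241. With the neighbour correction they were 0.173 for Tnks, -0.0856 for Tnks2 and 0.301 for Ercc3. Leaving out 1 female of 33-44 days (replicate 1, earlier set) brought Tnks2 to -0.507. That fit kept 1 female of that age, whose array was of the later set. The youngest group has no array in the later set, so age and set are only partly separable here.

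From 33-44 days to 6 months 0 of 6 members had an unadjusted p under 0.05, beside 5.31% of all probes. From 6 to 16 months under AL, Ercc3 alone of the 6 did (beside 3.04%), at -0.338 with an unadjusted p of 0.00892 and an adjusted p of 0.999 by limma. Its values at 6 months ran from -1.92 over a median of -1.67 to -0.34, and at 16 months from -2.22 over -2.00 to -1.36. Both arrays of the near-identical pair stood at that lowest value of -2.22, and the fit counted them separately. A single 6 months male (replicate 1) at -0.34 lay far above the rest, and without it the difference was -0.208; within the earlier set it was -0.48 and within the later set -0.0775. From 6 to 24 months Terf1 alone did (beside 2.89%), at -0.156 with an unadjusted p of 0.0229, 9 of 10 old mice lying below the 6 months mean. In the test over all 5 AL ages Ercc3 alone did (unadjusted p = 0.0162, beside 5.86%), and the adjusted p was 0.705. Of the comparisons other than that of the 2 youngest ages, each had 0% of probes and 0 of 6 members past adjustment.

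The other genes of these pathways were read through lists. Of 26 telomere and telomerase genes 8 were measured, and from 16 to 24 months under AL 3 were positive and 5 negative, with a median of -0.0425 against -0.004 over all probes, and 0 passed in either direction. Dkc1, the dyskerin subunit of telomerase, differed by -0.125, and Terf2, which encodes TRF2, the second repeat-binding protein of shelterin, by 0.225 (unadjusted p = 0.131 and 0.165). Terf2 thus lay on the other side of 0 from Terf1. With pass and array set as blocks the adjusted p of Terf2 was 0.0373, and with the neighbour correction added to the blocks it was 0.2 (limma).

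Of 45 partners of Werner and genes of DNA strand repair 13 were measured, of which 9 were positive and 4 negative, with a median of 0.03 and 0 past the test. Rmi1, a subunit of the complex that dissolves crossed DNA strands with the Bloom helicase, differed by 0.118, and the damage kinase gene Atm by 0.149 (unadjusted p = 0.0666 and 0.0994). Wrnip1, whose product binds the Werner protein, differed by -0.054. Of 21 TFIIH and nucleotide excision repair genes 7 were measured, 3 positive and 4 negative with a median of -0.024, the damage-recognition gene Rad23b at -0.14 and the nuclease gene Ercc5 at -0.084. Of 13 genes of the Hsp90 machinery 3 were measured, 1 positive and 2 negative with a median of -0.006, Hspa8 standing at 0.084 and Fkbp5 at -0.025. None of these members passed adjustment, and the share of all probes that were positive was 48.2%.

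Markers of cell types were set beside the same interval. Both neuronal markers were negative (median -0.12), among them Uchl1 at -0.174, and the mean of the pair ran from -0.055 to 0.185 over mice of 16 months and from -0.15 to 0.07 over mice of 24 months. All 3 microglial markers, the complement genes C1qa, C1qb and C1qc, were positive (median 0.056), and their mean ran from -0.0533 to 0.283 and from 0.0767 to 0.28. Both oligodendrocyte markers were negative (median -0.0605), and of the 3 astrocyte markers 2 were positive and 1 negative (median 0.001). Under CR, where Wrn differed by 0.069, both neuronal markers were negative too (median -0.13), and 1 of 3 microglial markers was positive (median -0.026). Nefl stood at -0.192 there with an unadjusted p of 0.0117 by limma, and at -0.0183 after the neighbour correction. With that correction the neuronal median was -0.022 under CR and -0.0771 under AL, and the microglial median -0.0361 and 0.0256. None of the markers passed adjustment, and their part in the Wrn and Terf1 differences was not tested.

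The probes whose values tracked Wrn and Terf1 most closely from mouse to mouse were listed as a description, over the 67 arrays after pass and set means were removed; points share the array, its filter and its labelling. For Wrn these were Ptprg (r = 0.634), Nol10 (0.602), Tlk2 (0.569), Timp4 (0.55) and Rnaseh1 (0.544), of which Nol10 and Rnaseh1 lay among its neighbours on the filter. After the neighbour correction none of the 5 stayed in the list, which then opened with Slc12a4 and with Tnrc6a (0.513). For Terf1 they were Mtmr12 (0.73), Eef2k (0.694), Cryzl1 (0.689), Ralgapa1 (0.678) and Fxyd4 (0.663), none within 2 rows and columns of it. Beyond that reach, Ptprg lay in the same block and row of the inferred layout as Wrn. Mtmr12, Eef2k and Cryzl1 lay in the same block as Terf1, while Tlk2, Timp4, Ralgapa1 and Fxyd4 lay in other blocks than the gene they tracked. The part of filter position in these correlations was not tested. Mtmr12 headed the Terf1 list after correction too (0.756), followed by Lrpprc (0.722).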

How the data were processed

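Gene expression was measured in 67 cerebral cortex samples, 1 array each. Per the labels the label was 33P; the study's methods name 32P. The authors extracted spot intensities and transformed them, per array, to z scores; the deposited score table held 8448 probes with 1 value missing. The log base and the handling of background were not given in the sources used here. With no counting depth, precision was read from the number of mice and the spread between arrays: the median 95% interval reached 0.187 to either side for 24 against 16 months under AL.

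Group means of 16 age, diet and sex groups were fitted with limma 3.58.1 in R 4.3.3 (eBayes, two-sided, Benjamini-Hochberg over 8448 probes, threshold 0.05), after tests on simulated data. The 6 genes, the pathway lists and the markers were chosen with earlier results of these data known. Levels were named for all 6; differences for 24 against 16 months (AL, CR), CR against AL at 24 months and the interaction, elsewhere at an unadjusted p under 0.05; of each list, passing members or the 2 with the smallest p, besides Wrnip1, the markers and Terf2 under blocks, named after their values were seen. Each list gene was read by its brightest probe. The neighbour correction subtracts the mean of spots within 2 positions in a layout of 16 blocks of 24 rows and 22 columns, inferred from probe order. Blocks, scalings, filters, weights and left-out arrays were alternatives. The labels name a mouse for each array; both near-identical arrays entered the fits.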

Additional observations from a re-analysis of the deposited data

Results flagged for a closer look

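In 48 groups of arrays (6 genes, 8 combinations of age and diet) a single array was looked for that lay far from the rest, by the gap to its nearest neighbour over the range of the group; about 1 group in 20 would be picked by chance. There were 4. Tnks2 at 17-21 days stood at -0.41 in female replicate 2, against 0.02 in the next mouse. Ercc3 stood at -1.7 in the same mouse, against -2.04 in the next. Ptges3 at 33-44 days stood at -0.04 in male replicate 1, against 0.54 in the next. Ercc3 at 6 months under AL stood at -0.34 in male replicate 1, against -1.39 in the next. No cause was tested.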

How the results depend on the processing

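With 0 of 6 members past adjustment in each of 15 comparisons, the count stayed at 0 under every setting tried except in the 2 youngest ages. There it changed only without 33-44 days female replicate 1, a fit that leaves 1 female at that age. The number meeting the selection steps for 24 against 16 months under AL, 2 as reported, was 0 with the neighbour correction, 0 with that and blocks, 1 without the near-identical arrays (Wrn) and 0 within the later set; single arrays left out gave 1 to 3. Wrn dropped out there without AL 24 months male 1, female 2 or female 3, or AL 16 months male 4, male 5, female 4 or female 5, and Terf1 without AL 24 months male 5 or female 5; Ptges3 joined without AL 24 months female 4 or male 5, and within the earlier set in place of Terf1.

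Differences that turned sign were all small and uncalled. From 16 to 24 months under AL, Tnks2 was 0.0118 without the near-identical arrays and 0.00242 with array weights, and Tnks 0.0325 within the later set. Under CR, with the neighbour correction, Terf1 was 0.00735, Tnks2 -0.00433 (-0.0013 with blocks) and Ptges3 -0.00672; Tnks2 was -0.00975 with array weights and Ercc3 -0.0925 within the later set. For CR against AL at 24 months, Tnks2 was -0.0309 with the neighbour correction, -0.0278 with blocks added, -0.0304 with array weights and -0.00583 within the earlier set. In the interaction, Tnks2 was -0.000649 with the neighbour correction and -0.0122 with array weights, and Tnks 0.0057 with pass as a block, 0.0114 with the neighbour correction and blocks, 0.0582 with array weights and 0.0167 within the earlier set. With each array left out, differences that crossed 0 ran from -0.0768 to 0.025 (Tnks, AL), -0.001 to 0.167 (Wrn, CR), -0.0045 to 0.117 (Tnks2, CR), -0.01 to 0.0965 (Ptges3, CR), -0.0228 to 0.0665 (Ercc3, CR), -0.0445 to 0.073 (Tnks2, CR against AL) and -0.094 to 0.0233 (Tnks, interaction). The cause was not tested.

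No paired analysis was possible because replicate numbers here follow accession order and pair no mice; array pass and array set served as blocks instead. Within the later set, the comparison of the 2 youngest ages, that over all ages and that of the sexes could not be fitted, for lack of arrays.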
